A study of Mus musculus with 14 samples.

Results

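The loss of Rheb1 was followed in myeloid progenitors, which the sample names call GMP, the usual short form for granulocyte-monocyte progenitors. Of 14 mouse samples hybridised to single-colour Agilent arrays, 6 are compared here: 3 of Rheb1-/- myeloid progenitors and 3 of wild-type myeloid progenitors. They were chosen by the cell type and genotype in their labels. Rheb1-/- stands for Vav1-cre; Rheb1fl/fl mice, in which Cre recombinase expressed from Vav1 sequences in blood cells removes the floxed Rheb1 gene. The labels call the other group wild type. The sources used here state neither whether those mice carried the floxed alleles or Vav1-cre nor the ages of the mice. The remaining samples are 3 Rheb1-/- and 3 wild-type samples of myeloid cells, and 1 Rheb1-/- and 1 wild-type sample of hematopoietic stem cells. The myeloid cell samples also entered the limma fit, so each SE and p-value draws on the spread within 4 groups, 12 arrays in all. No label ties a replicate to its own mouse, so the p-values measure the spread between these samples, which may be technical.

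Rheb, the gene symbol under which Rheb1 is annotated, encodes a small GTPase on the lysosome surface that, when bound to GTP, switches on the kinase complex mTORC1. mTORC1 promotes protein synthesis, ribosome production and lipid synthesis, the last partly through the sterol-responsive transcription factors SREBP1 and SREBP2, and it restrains autophagy and lysosome gene expression. In bone marrow, granulocyte-monocyte progenitors arise beside the precursors of megakaryocytes, the cells that shed platelets, and of red cells, and they give rise to neutrophils, monocytes and macrophages.

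Stretches of probes and example promoters are given first. The first 30 of the 60 bases of the probes for the targeted gene and for 4 passing genes are printed as the files give them, with mm9 positions from the same files.
Rheb: ttctgttttcttctgttaacctgaagatgt
C4b: tcactggagcgaagggtggaggacaaggat
Gpt2: gaaaaggtaccatgtgtgctcgctaggcat
Ifi207: gggacatttgtgagtggagagtacttagta
Ms4a7: caacaaacctgggggtacatttttcttgcc
The files place the Rheb probe at chr5:24308641-24308675 on the minus strand, an interval shorter than the probe. The sources used here do not place it relative to the floxed exons. The C4b probe lies at chr17:34866361-34866420 (minus strand) and the Gpt2 probe at chr8:88050856-88050915 (plus strand). The Ifi207 probe at chr1:175655230-175657575 and the Ms4a7 probe at chr19:11396026-11396801, both on the minus strand, span intervals longer than 60 bases.

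Promoters of 3 genes are printed as examples from the cholesterol synthesis, megakaryocyte and platelet, and interferon response lists described below. Each runs from 250 bases before to 50 bases after the annotated start (RefSeq, GRCm38.p6). They are written 5′ to 3′ on the gene's strand with the motifs searched in capitals. Hmgcs1, at chr13:119690101-119690400 on the plus strand, makes the precursor of mevalonate in cholesterol synthesis. Pf4, at chr5:90772185-90772484 on the plus strand, encodes a platelet granule chemokine. Isg15, at chr4:156200769-156201068 on the minus strand, encodes a ubiquitin-like protein induced by interferon.
Hmgcs1: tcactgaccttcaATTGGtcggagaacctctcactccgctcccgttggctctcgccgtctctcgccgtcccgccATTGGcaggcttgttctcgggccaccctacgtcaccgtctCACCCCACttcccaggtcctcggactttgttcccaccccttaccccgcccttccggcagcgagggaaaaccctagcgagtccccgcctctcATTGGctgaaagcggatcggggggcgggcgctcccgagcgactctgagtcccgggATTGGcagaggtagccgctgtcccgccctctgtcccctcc
Pf4: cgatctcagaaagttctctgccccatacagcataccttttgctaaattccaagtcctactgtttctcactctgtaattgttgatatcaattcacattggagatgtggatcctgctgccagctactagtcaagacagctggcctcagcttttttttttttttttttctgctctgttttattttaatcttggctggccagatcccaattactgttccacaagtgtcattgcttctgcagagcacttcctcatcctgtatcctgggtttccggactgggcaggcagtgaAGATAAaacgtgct
Isg15: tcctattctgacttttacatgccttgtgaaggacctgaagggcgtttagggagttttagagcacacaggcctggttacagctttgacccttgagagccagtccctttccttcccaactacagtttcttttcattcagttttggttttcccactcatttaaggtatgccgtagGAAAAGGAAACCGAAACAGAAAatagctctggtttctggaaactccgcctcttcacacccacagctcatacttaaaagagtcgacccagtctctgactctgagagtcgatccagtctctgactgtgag
In Hmgcs1 the capitals mark 1 match to the core of the sterol regulatory element bound by SREBP proteins (CACNCCAC) and 4 CCAAT boxes, all 4 on the opposite strand, where they read ATTGG. The 2 motifs do not overlap there. In Pf4 they mark the GATA motif AGATAA, bound by GATA1 and its relatives, and in Isg15 they mark 3 overlapping copies of the core of the interferon-stimulated response element, which is GAAA, any 2 bases and GAAA again. Both strands were searched in every promoter of each list that the table held. CCAAT occurred in 14 of 18 windows of 15 cholesterol synthesis genes (77.8%, against 37.4% of all 32851 mouse windows), and CACNCCAC in 2 of these 18 (11.1%, against 6.24%). AGATAA was present in 5 of 35 windows of 32 megakaryocyte and platelet genes (14.3%, against 11.2%), those of Clec1b, Gp5, Gp6, Mpig6b and Pf4. The interferon-stimulated response element core was present in 24 of 43 windows of 38 interferon response genes (55.8%, against 3.44%). A match describes letters and is not a binding site measured here.

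Between 58.5% and 67.1% of spots were well above background on the 6 arrays and 0 were saturated, and replicates correlated at 0.988 to 0.992 in Rheb1-/- and 0.988 to 0.991 in wild type over the genes tested. Wild-type progenitor array 1 lay on a slide scanned on another day (slide 2), Rheb1-/- arrays 1 and 2 and wild-type arrays 2 and 3 shared slide 3, and Rheb1-/- array 3 lay on slide 4. Each difference could therefore be read within slide 3 and again between the 2 remaining arrays (Rheb1-/- array 3 minus wild-type array 1), which share neither a slide nor a scan day. The second reading has no replicate and was added after the data were seen. The label was checked in wild type against the 13 measured granulocyte-monocyte progenitor markers, of which 10 were higher in progenitors than in myeloid cells and 3 lower. In wild type, progenitors minus myeloid cells, the stem and progenitor antigen Cd34 differed by 5.02 on the log2 scale, the stem cell factor receptor Kit by 2.23 and the granule proteases Prtn3 and Elane by 2.83 and 2.01, whereas the neutrophil genes Mmp9 and Cxcr2 differed by -6.88 and -5.86 (limma adjusted p at most 2.1e-06 for these 6 genes). The 3 lower markers were the receptors Csf3r (-2.98), Csf1r (-1.61) and Fcgr3 (-1.36), which mature myeloid cells also carry (limma adjusted p at most 4.6e-05, in a comparison in which 38.9% of genes passed higher and 38.8% lower). The 13 markers, of 14 listed, were above background on all 6 progenitor arrays. With few arrays per group, small differences could not be resolved.

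Rheb itself was lower in Rheb1-/- progenitors on every array but was still measured. Its level, the log2 signal relative to the array's 75th percentile, was 3.26, 2.66 and 2.60 in Rheb1-/- arrays 1, 2 and 3, against 3.95, 4.04 and 3.79 in wild-type arrays 1, 2 and 3. The groups did not overlap, and Rheb1-/- array 1 lay nearest to wild type. The difference was -1.08 ± 0.22 (SE, n = 3 per genotype; limma adjusted p = 0.0945), which did not pass the threshold of 0.05. It was -0.95 within slide 3 and -1.34 between the other arrays. The mTOR pathway as a whole stayed close to the bulk of genes. Over 50 measured genes of the mTOR complexes and their control, Rheb included, of 52 listed, the median difference was -0.02 (0.02 over all 17724 genes tested), and 0 passed, while 4 were lower and 2 higher at an unadjusted p under 0.05 (5.19% and 6.9% of all genes). The close relative Rhebl1 was 0.92, 1.16 and 0.94 in Rheb1-/- progenitors, against 0.82, 0.78 and 0.46 in wild type, a difference of 0.32 (limma adjusted p = 0.309). Among the genes listed for amino acid sensing upstream of mTORC1, Sesn3, of the sestrin family, was -1.08, -1.31 and -1.25 in Rheb1-/- progenitors, against -0.59, -0.26 and -0.29 in wild type (difference -0.83 ± 0.13, SE; limma adjusted p = 0.0575). Its other 2 probes differed by -0.40 and -0.04, and the mean of its probes by -0.43. Castor2, of the arginine-sensing family, was -3.59, -3.83 and -4.13, against -3.18, -2.79 and -2.95 in wild type (difference -0.88; limma adjusted p = 0.0935). Neither Sesn3 nor Castor2 overlapped between genotypes by the brightest probe, and neither passed. Fnip2, a partner of folliculin in the same branch, differed by 0.27 (limma adjusted p = 0.37).

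Across the 17724 genes tested 13 (0.0733%) had an adjusted p under 0.05 by limma, of which 9 (0.0508%) were higher and 4 (0.0226%) lower in Rheb1-/- progenitors. C4b, a complement protein that becomes bound to surfaces when complement is activated, was at -1.84, -0.83 and -1.43 in Rheb1-/- progenitors, against -4.05, -4.57 and -4.33 in wild type. The lowest Rheb1-/- array lay above the highest wild-type array by more than the whole range within either group. The rise was 2.95 ± 0.38 (SE) on the log2 scale, a 7.74-fold difference (limma adjusted p = 0.0344), with 3.12 within slide 3 and 2.62 between the other arrays. C4a, its near-identical neighbour, was on the array but did not pass the filter on background, and cross-hybridisation between these copies was not tested.

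Commd10, on chromosome 18, encodes a protein of a family involved in endosomal sorting of membrane proteins. It was at 1.69, 1.90 and 1.89 in Rheb1-/- progenitors, against 0.59, 0.46 and 0.68 in wild type. The arrays of each genotype lay close together and far from the other genotype. The rise was 1.25 ± 0.12 (SE; limma adjusted p = 0.00514), and 1.23 within slide 3. The RefSeq gene table lists names of a Vav1-Cre transgene among the synonyms of Commd10, Rheb1-/- mice carry a Vav1-cre transgene by their label, and the part of the transgene in this rise was not tested. Over the 14 COMMD genes, all measured, the median was -0.04, and 10 of 14 were below 0 (46.4% of all genes were).

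Dgat2, which makes triacylglycerol from diacylglycerol, was at 4.52, 4.87 and 4.73 in Rheb1-/- progenitors, against 3.49, 3.53 and 3.92 in wild type. The groups lay apart, and all 3 probes of the gene gave a similar difference (1.06, 1.07 and 1.12; limma adjusted p = 0.0344 for the first). Gpt2, the mitochondrial alanine aminotransferase that links alanine to the citric acid cycle, was at -1.81, -1.88 and -1.86 in Rheb1-/- progenitors, against -1.18, -1.12 and -1.10 in wild type. The arrays of each genotype lay close together, and the fall was -0.71 ± 0.07 (SE; limma adjusted p = 0.00659), with -0.73 within slide 3 and -0.68 between the other arrays. Ifi207, of the interferon-inducible PYHIN family, was at -3.35, -3.90 and -3.99 in Rheb1-/- progenitors, against -2.56, -2.21 and -2.22 in wild type, and fell by 1.41 (limma adjusted p = 0.0344). A second Ifi207 probe, above background on 4 of 6 arrays, differed by -0.55, and the probes of this gene family may share sequence. Ms4a7, a membrane protein of macrophages, was at -5.85, -6.01 and -6.50 in Rheb1-/- progenitors, above background on 1 of 3 arrays, against -4.31, -3.76 and -4.82 in wild type. It fell by 1.83 (limma adjusted p = 0.0375), and a second probe above background on 2 of 6 arrays differed by -3.06.

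**Figure D1:**
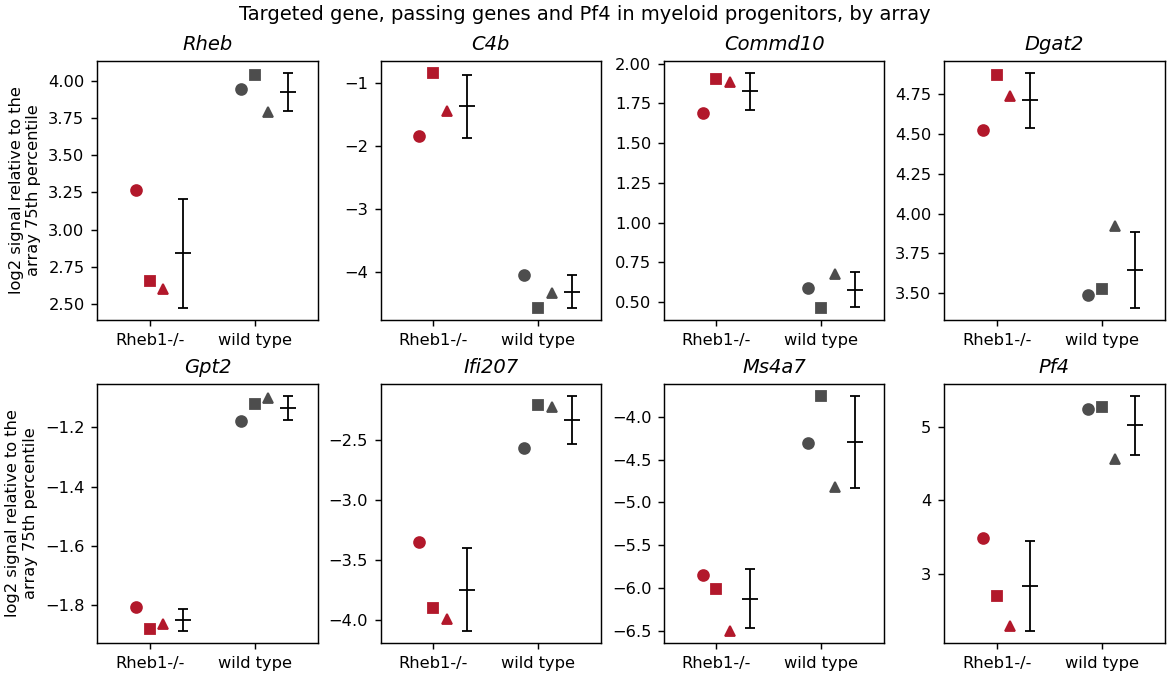
Level of Rheb, 6 passing genes and Pf4 in each myeloid progenitor array, as log2 signal relative to the array's 75th percentile. Red points are Rheb1-/- and grey points wild type, with array 1 as a circle, array 2 as a square and array 3 as a triangle, and bars give the mean and SD of 3 arrays; the genotypes do not overlap in any of the 8 panels, and C4b shows a rise of 2.95.

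Most other passing genes lay near background in wild type, and the last one given here did so in Rheb1-/- progenitors. Sva, a secretory protein known from the seminal vesicle, was at -4.98, -4.50 and -5.00 in Rheb1-/- progenitors, against -8.26, -7.15 and -7.60 in wild type, where it was not well above background, and rose at least 1.98-fold (limma adjusted p = 0.00514). That bound sets the mean of the Rheb1-/- arrays against the lowest signal called well above background on the wild-type arrays. It holds for the main processing only. With normexp background correction Sva differed by 0.40 and did not pass (limma adjusted p = 0.675). The kinesin Kif1a, a motor protein of vesicle transport, was at -4.21, -4.17 and -4.19 in Rheb1-/- progenitors, against -5.47, -6.00 and -5.99 in wild type, where 1 of 3 arrays was above background, and rose by 1.63 (limma adjusted p = 0.00704), with 1.004 in its second probe. An immunoglobulin kappa light chain variable segment rose at least 1.37-fold (limma adjusted p = 0.0375). This bound too holds for the main processing only, and with normexp the segment differed by 0.11 and did not pass. Mfsd13b was higher (limma adjusted p = 0.0476), but a second probe, above background on 1 of 6 arrays, differed by -1.59. Mfsd13b, the olfactory receptor Olfr1358 and 4932439E07Rik were above background on 2 of 3 Rheb1-/- arrays and on 0 of 3 wild-type arrays. No size of change is given for these genes (limma adjusted p = 0.0405 for Olfr1358 and 0.00986 for 4932439E07Rik). The probe A_52_P653905, which has no gene name in the files, above background on 0 of 3 Rheb1-/- arrays, fell at least 3.04-fold (limma adjusted p = 0.000379).

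These calls depended on how the arrays were treated. Commd10 and Gpt2 passed in 21 and 20 of the 24 settings tried, against 12 for Dgat2, 11 for C4b and 9 for Ifi207, while Ms4a7 passed in 8 and Mfsd13b and Olfr1358 each in 6 of 23. Sva passed in 20, Kif1a in 18, 4932439E07Rik in 17 and the kappa segment in 9 of 23. Sizes moved as well. C4b differed by 1.83 with normexp, and Kif1a ranged from 0.35 to 1.81 across the settings. Limma passed 0 genes with the 4 arrays of slide 3 alone and 0 with the 6 progenitor arrays alone, with 1388 and 2134 at an unadjusted p under 0.05.

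Genes just outside the threshold, whose arrays did not overlap between genotypes, had limma adjusted p-values of 0.0523 to 0.0757. Lower in Rheb1-/- progenitors were the vascular growth factor receptor Kdr (-1.41), the platelet receptors Clec1b (-1.37) and Gp1bb (-1.27), the mitochondrial carrier Slc25a35 (-1.32, with wild-type array 1 missing), Gm16523 (-1.23), the lysosomal phospholipase family member Pld3 (-0.80), Zfp105 (-0.66) and Mxra7 (-0.53). Higher were Wscd2 (1.56, with 0.66 in a second probe), Tsga10ip (1.41), Tmc7 (1.32) and 4921507P07Rik (0.71). Csmd1, Ifitm5 and Lrfn3 lacked a signal above background in wild type (0 of 3) and were at least 1.68-fold, 1.87-fold and 1.51-fold higher. The other Csmd1 probes, above background on no array, went the other way (-0.59, -0.41 and -0.36). Sesn3, given above, and the sterol enzyme Msmo1, given below, were also lower in this range without overlap. The lower set thus held 2 platelet receptors beside single genes of other kinds.

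The genes of megakaryocytes and platelets had the lowest median of the lists examined. Of 37 listed genes 36 were on the array and 34 were tested. Their median log2 difference was -1.07, and 32 of 34 were below 0 (46.4% of all genes, for this and every list below). In 21 of 34 every Rheb1-/- array lay below every wild-type array, against 8.9% of all genes. At an unadjusted p under 0.05, 21 were lower and 0 higher (5.19% and 6.9% of all genes), and by limma 0 passed after adjustment over all genes. The median over the 30 members above background on all 6 arrays was -1.12. Within slide 3 the median was -0.94, between the other arrays it was -1.47, and 25 of 34 members were below 0 in both (27.9% of all genes). The members' median deviation from their own mean over the 6 arrays was -0.18, -0.76 and -0.70 in Rheb1-/- arrays 1, 2 and 3, against 0.80, 0.61 and 0.24 in wild-type arrays 1, 2 and 3. Rheb1-/- array 1 lay nearest to wild type for this list and for Rheb, and whether the 2 are connected was not tested.

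Surface receptors were lower as a group, 14 of 14 tested being below 0 with a median of -1.21. Integrin Itga2b, which with Itgb3 forms the fibrinogen receptor, was at -0.72, -1.32 and -1.44 in Rheb1-/- progenitors, against 0.29, 0.01 and -0.38 in wild type, and Itgb3 differed by -0.86. Neither integrin subunit overlapped between genotypes by these probes, but a second Itgb3 probe differed by 0.03. The receptor for von Willebrand factor, built from Gp1ba, Gp1bb, Gp5 and Gp9, was lower in all 4 subunits (-1.68, -1.27, -1.64 and -1.14; limma adjusted p between 0.0575 for Gp1bb and 0.306 for Gp1ba). Gp1bb was at -3.84, -4.42 and -4.17 in Rheb1-/- progenitors, against -2.53, -2.90 and -3.18 in wild type. The collagen receptor Gp6 had the largest difference of the list, -2.76, but it was above background on 1 of 3 Rheb1-/- arrays and wild-type array 1 alone stood at -0.92, with the other wild-type arrays at -4.30 and -5.09. The podoplanin receptor Clec1b was at -2.13, -2.92 and -2.60, against -1.10, -1.12 and -1.30 in wild type. The platelet receptor Treml1 was at -0.01, -0.58 and -1.21, against 1.85, 1.57 and 0.85 in wild type (difference -2.02; limma adjusted p = 0.0766). The thromboxane receptor Tbxa2r differed by -0.99, and the tetraspanin Cd9 and the ADP receptor P2ry1, both present on many cell types, differed by -0.39 and -0.13.

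Granule proteins showed the same direction in 10 of 11 genes (median -1.10). Pf4 was at 3.49, 2.70 and 2.30 in Rheb1-/- progenitors, against 5.24, 5.26 and 4.56 in wild type. Every Rheb1-/- array lay below every wild-type array, and the difference was -2.19 ± 0.41 (SE; limma adjusted p = 0.0825). The chemokine Ppbp differed by -2.19 and Mmrn1, a carrier of factor V, by -1.91 (limma adjusted p = 0.13 and 0.211). Vwf was at 0.51, 0.03 and -0.51 in Rheb1-/- progenitors, against 1.83, 1.88 and 1.23 in wild type (difference -1.63; limma adjusted p = 0.0766), and its second probe gave -1.58. Rab27b, which moves granules to the membrane, differed by -1.74 and the protease inhibitor Serpine2 by -0.52. Thbs1 differed by -1.10 on average but by -2.29 within slide 3 and 1.29 between the other arrays, and the adhesion receptor Selp was the granule member above 0, at 0.36 with overlap. Cytoskeletal and signalling genes had a median of -0.53 over 9 tested, with the calcium channel Trpc6 at -1.95, the nitric oxide receptor subunit Gucy1a1 at -1.82 (limma adjusted p = 0.0766 for each) and the thromboxane synthase Tbxas1 at -0.53, whereas the cyclooxygenase Ptgs1 was at 0.16. The other Gucy1a1 probes differed by -1.93, -0.53 and -0.76, the last 2 not above background on every array.

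The transcription factors that megakaryocytes share with red cells moved less. Over 12 genes, all measured, the median was -0.12, 10 of 12 were below 0 and 3 lay lower without overlap (8.9% of all genes). Within slide 3 the direction was not kept, with 6 of 12 below 0 and a median of -0.04. Gata1 was at -1.38, -2.33 and -2.14 in Rheb1-/- progenitors, against -0.71, -1.10 and -1.30 in wild type (difference -0.91 ± 0.29, SE; limma adjusted p = 0.252). Its cofactor Zfpm1 differed by -0.96 and the repressor Gfi1b by -0.76, neither overlapping between genotypes, while Gata2 (-0.48) and the red cell factor Klf1 (-0.64) overlapped. Erythroid genes had a median of -0.40 over 28 tested (22 below 0, 7 lower without overlap, against 8.9% of all genes), with -0.74 for globins and red cell enzymes, -0.52 for membrane proteins and receptors and -0.03 for haem synthesis. The erythropoietin receptor Epor differed by -0.81, the transferrin receptor Tfrc by -0.52, carbonic anhydrase Car1 by -0.66 and Blvrb, of biliverdin reduction, by -0.73. Across the settings tried the erythroid median ranged from -0.55 to -0.14, with -0.21 by normexp.

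Marker levels of the cell types that such a sample could hold were summed on each array. The linear scaled signal of 8 megakaryocyte and platelet markers summed to 6.996 to 15.23 in Rheb1-/- progenitors, against 29.6 to 47.3 in wild type, with no overlap and 8 of 8 lower. The 13 granulocyte-monocyte progenitor markers summed to 1888 to 1903, against 1644 to 2002 in wild type. Macrophage and monocyte markers summed to 381 to 430, against 375 to 492 in wild type, although 8 of 11 were lower (median -0.45). A linear sum follows its brightest members. Ly6c2, which differed by -0.07, made up most of this one, while the dim C1qc differed by -2.03. Erythroid markers summed to 2.87 to 13.4, against 6.49 to 16.9, and eosinophil, basophil and mast cell markers to 442 to 799, against 705 to 844 in wild type, both overlapping with 7 of 7 lower. Stem cell markers summed to 3.57 to 3.82, against 4.35 to 4.92 in wild type (5 of 6 lower), and endothelial and stromal markers to 0.525 to 0.592, against 0.734 to 0.917 (4 of 4 lower). B cell, T and NK cell, dendritic cell and neutrophil marker sums overlapped. Pf4, Ly6a, Pecam1 and Nkg7 made up most of the megakaryocyte, stem cell, endothelial and T and NK cell sums. Hba-a1 made up most of the erythroid sum and Prg2 most of the eosinophil, basophil and mast cell sum. All these sums thus speak mainly for single genes. Nkg7 was 3.04 higher in wild-type progenitors than in wild-type myeloid cells. Pax5, Cd3g, Cd209a, Cdh5 and Lepr were below background on all 6 arrays, and the stromal chemokine Cxcl12 was above background on 0 of 3 Rheb1-/- arrays and 3 of 3 wild-type arrays (at least 3.22-fold lower; limma adjusted p = 0.0855). In these bulk samples fewer cells of a type and less RNA per cell cannot be told apart, and the part of the marker differences in the other results was not tested.

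**Figure D2:**
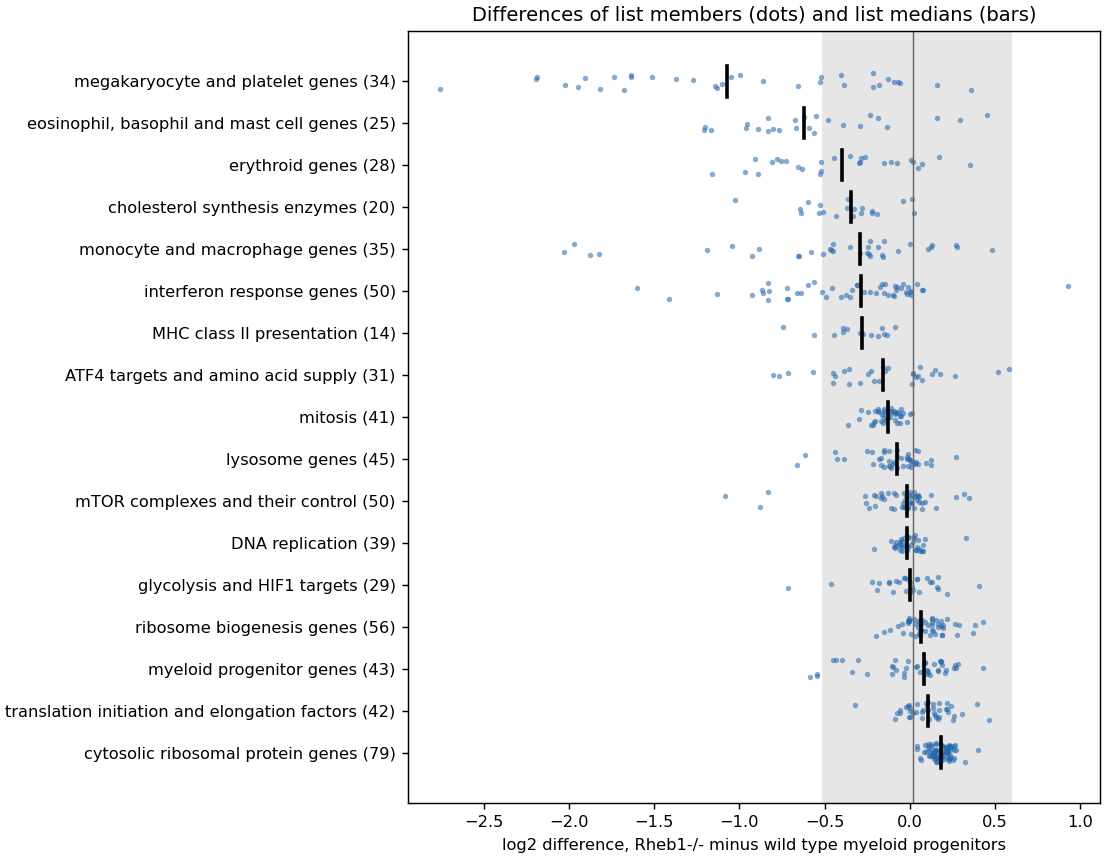
Log2 difference, Rheb1-/- minus wild-type myeloid progenitors, of each tested member (dots) of 17 gene lists, with list medians as black bars and the number of members in parentheses. The grey band spans the 5th to 95th percentile of all genes (-0.51 to 0.59) and the thin line is the median of all genes (0.02); the megakaryocyte and platelet median, -1.07, lies outside the band and the ribosomal protein members lie tightly above 0.

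Basophil and mast cell genes were also lower, with one array apart. Over 25 tested genes of eosinophils, basophils and mast cells, of 28 listed, the median was -0.62, 22 were below 0 and 4 lay lower without overlap (8.9% of all genes). It was -0.39 within slide 3 and -1.06 between the other arrays, and the list's deviation was 0.21 in Rheb1-/- array 1, against -0.59 and -0.56 in Rheb1-/- arrays 2 and 3 and 0.51, 0.08 and 0.29 in wild type. Rheb1-/- array 1 thus lay within the wild-type range. The basophil protease Mcpt8 was at 3.84, 2.92 and 2.93 in Rheb1-/- progenitors, against 4.46, 4.0005 and 4.11 in wild type (difference -0.96; limma adjusted p = 0.199). The histamine-forming enzyme Hdc differed by -0.62, the interleukin-33 receptor Il1rl1 by -0.83 and the eotaxin receptor Ccr3 by -1.21, with no overlap in these 4 genes.

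The enzymes of cholesterol synthesis were lower along the length of the pathway. All 20 listed enzymes were tested and above background on all 6 arrays. Their median difference was -0.35, 18 of 20 were below 0, 15 lay lower without overlap (8.9% of all genes) and 13 were lower at an unadjusted p under 0.05 (5.19% of all genes), while 0 passed over all genes. The median was -0.35 within slide 3 and -0.34 between the other arrays, and 17 of 20 were below 0 in both (27.9% of all genes). The list's deviation was -0.15, -0.12 and -0.21 in Rheb1-/- arrays 1, 2 and 3, against 0.15, 0.09 and 0.28 in wild-type arrays 1, 2 and 3, so that the genotypes lay apart on every array.

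At the head of the pathway, Hmgcs1 was at 1.80, 1.81 and 1.78 in Rheb1-/- progenitors, against 1.99, 1.97 and 2.09 in wild type. The Rheb1-/- arrays lay close together and below the wild-type arrays, for a difference of -0.22 (limma adjusted p = 0.268), with -0.18 and 0.36 in its other probes. The sterol element match was found in the promoters of Hmgcs1 and of Acat2, a thiolase ahead of it in the pathway, which differed by 0.02. The mevalonate enzymes Mvk and Mvd differed by -0.33 and -0.53, the isomerase Idi1 by -0.37 and the farnesyl pyrophosphate synthase Fdps by -0.43, though a second Fdps probe differed by 0.10. Of the enzymes committed to sterols, the squalene synthase Fdft1 differed by -0.28 and the squalene epoxidase Sqle was at 0.62, 0.75 and 0.22 in Rheb1-/- progenitors, against 1.30, 1.03 and 1.18 in wild type (difference -0.64 ± 0.20, SE; limma adjusted p = 0.242). The cyclase Lss differed by -0.51, the demethylase Cyp51 by -0.60, Tm7sf2 by -0.29, Nsdhl by -0.33 and Hsd17b7 by -0.65. One of the other Nsdhl probes differed by 0.19, and the other Lss probes by -0.33 and -0.23. Msmo1, the sterol methyl oxidase, was at 1.64, 1.66 and 1.53, against 2.13, 1.99 and 2.28 in wild type (difference -0.52 ± 0.09, SE; limma adjusted p = 0.0719). Late in the pathway Dhcr7 was at 2.79, 2.91 and 2.83 in Rheb1-/- progenitors, against 3.15, 3.17 and 3.30 in wild type (difference -0.36 ± 0.07, SE; limma adjusted p = 0.101). Apart from Acat2, none of the enzymes named here overlapped between genotypes by the brightest probe.

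Among genes that control sterol supply, Srebf2 and Stard4 were lower without overlap. Srebf2, which encodes SREBP2, was at 3.16, 3.07 and 3.04 in Rheb1-/- progenitors, against 3.49, 3.41 and 3.67 in wild type (difference -0.44; limma adjusted p = 0.26), although its 3 other probes ranged from -0.55 to 0.08. The cholesterol carrier Stard4 and the SREBP retention factor Insig1 differed by -0.49 each, the escort protein Scap by -0.16 and Srebf1 by -0.12. The whole list of 14 control and uptake genes had a median of -0.13, with 9 below 0. Fatty acid synthesis moved less, with a median of -0.14 over 12 tested genes. The desaturases Fads2 and Fads1 differed by -0.97 and -0.62 without overlap, while the fatty acid synthase Fasn (-0.15) and the citrate lyase Acly (-0.05) overlapped. Beside the rise of Dgat2, the 11 tested genes of triacylglycerol synthesis and lipid droplets had a median of -0.07.

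**Figure D3:**
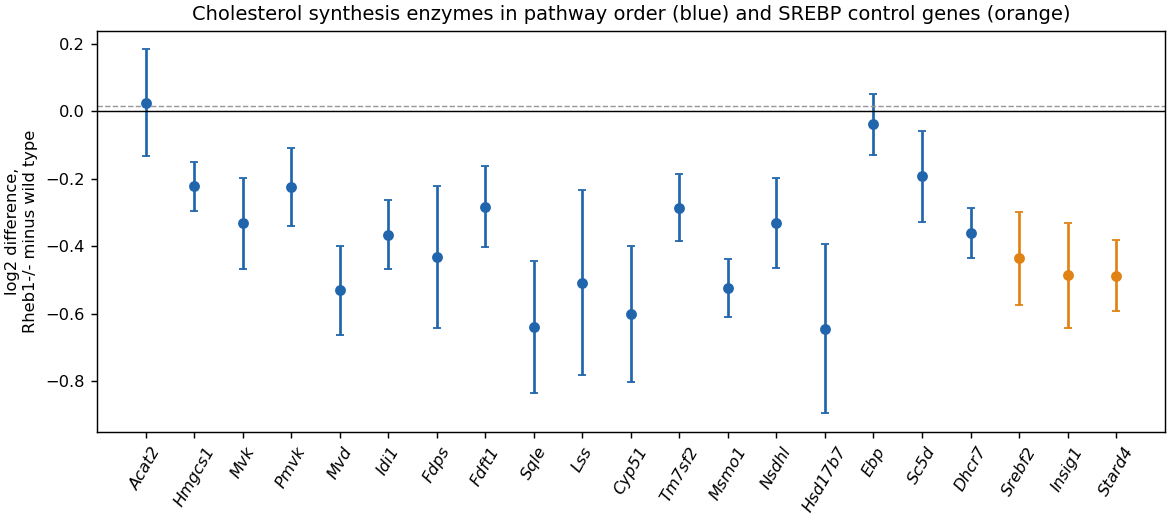
Log2 difference, Rheb1-/- minus wild-type myeloid progenitors, of 18 cholesterol synthesis enzymes in pathway order (blue) and of Srebf2, Insig1 and Stard4 (orange), with SE from limma; the dashed line is the median of all genes. Of the 18 enzymes plotted 17 lie below 0, among them Sqle at -0.64 and Msmo1 at -0.52.

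Interferon response genes were lower within slide 3 but not between the other arrays. Of 53 listed genes 50 were tested. Their median was -0.29, 43 of 50 were below 0 (46.4% of all genes) and 16 lay lower without overlap (8.9%). At an unadjusted p under 0.05, 12 were lower and 1 was higher (5.19% and 6.9% of all genes). Ifi207 passed. Within slide 3 the median was -0.45 with 47 of 50 below 0, whereas Rheb1-/- array 3 minus wild-type array 1 gave 0.04. The list's deviation was -0.24, -0.18 and 0.05 in Rheb1-/- arrays 1, 2 and 3, against 0.04, 0.13 and 0.32 in wild-type arrays 1, 2 and 3. Rheb1-/- array 3 and wild-type array 1, the 2 arrays on other slides, thus stood at nearly the same level, and which of these arrays departs from its group was not tested.

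Irf7, the factor that amplifies type I interferon, was at -4.28, -4.06 and -3.58 in Rheb1-/- progenitors, against -3.26, -3.19 and -2.97 in wild type, with no overlap and a difference of -0.83 ± 0.20 (SE; limma adjusted p = 0.14). Antiviral effectors had a median of -0.39 over 24 genes. Ifi27l2a was at 1.19, 0.70 and 1.24 in Rheb1-/- progenitors, against 2.03, 2.32 and 3.58 in wild type (difference -1.60; limma adjusted p = 0.118). The oligoadenylate synthetase-like gene Oasl2 was at -1.42, -1.24 and -0.91, against -0.36, -0.01 and 0.19 in wild type (difference -1.13; limma adjusted p = 0.112). Both lay apart between genotypes on every array, with -0.79 and -0.56 between the arrays off slide 3. Usp18, which removes ISG15 from proteins and dampens the receptor, differed by -0.92, Ifit3 by -0.87, Rsad2 by -0.83, Rtp4 by -0.83 and the GTPase Mx1 by -0.64, none overlapping. A second Mx1 probe, above background on 3 of 6 arrays, differed by -0.04. Isg15, whose promoter holds 3 overlapping matches to the response element core, was at -1.52, -1.53 and -0.83, against -0.93, -0.53 and -0.43 in wild type. Rheb1-/- array 3 thus lay above wild-type array 1. The PYHIN genes, which sense DNA in the cytosol and nucleus, had a median of -0.56 over 6 tested, and -0.45 and -0.51 in the 2 readings, with Ifi204 at -0.60, though -0.13 in another probe, and Ifi209 at -0.72. The GTPases of the GBP and IRG families had a median of -0.09.

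**Figure D4:**
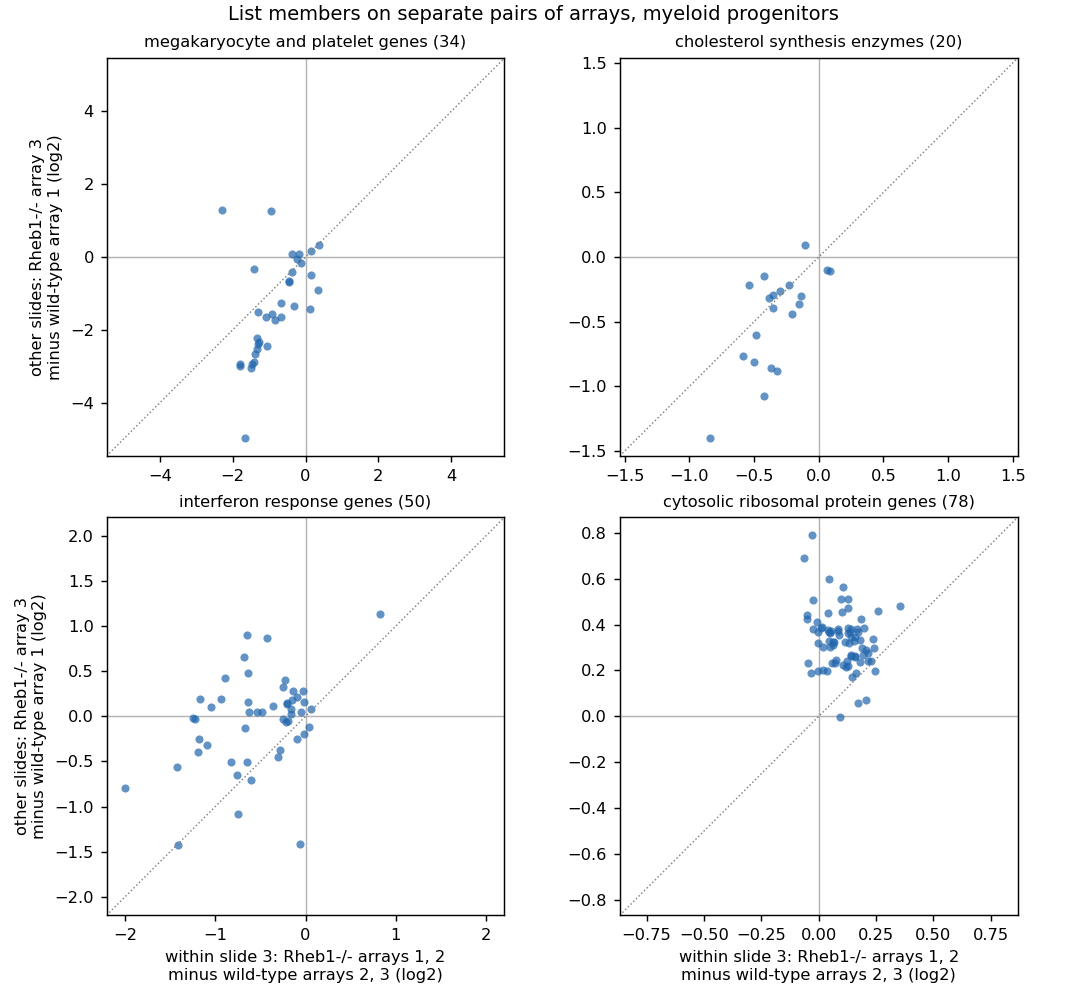
Log2 difference of each list member within slide 3 (Rheb1-/- arrays 1 and 2 minus wild-type arrays 2 and 3, x axis) against Rheb1-/- array 3 minus wild-type array 1 (y axis) for 4 lists, with the line of equality dotted and each panel on its own scale. Megakaryocyte and cholesterol genes fall mostly in the lower left, interferon genes scatter about 0 on the y axis (median 0.04), and 65 ribosomal protein genes lie above 0 on both.

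Ribosomal protein genes were slightly higher in Rheb1-/- progenitors. All 79 listed genes of the cytosolic ribosome were tested, with a median of 0.18 and 79 of 79 above 0 (53.6% of all genes), in a range from 0.04 to 0.40. In 34 of 79 the Rheb1-/- arrays lay above all wild-type arrays, against 11.1% of all genes. At an unadjusted p under 0.05, 10 were higher (6.9% of all genes), and 0 passed over all genes. The median was 0.11 within slide 3 and 0.33 between the other arrays, and 65 of 79 were above 0 in both (33% of all genes). It was 0.07 with quantile normalization, with 68 of 79 above 0, and 0.07 in the authors' deposited value table, with 66 of 79. The list's deviation was 0.07, 0.07 and 0.14 in Rheb1-/- arrays 1, 2 and 3, against -0.20, -0.08 and 0.02 in wild-type arrays 1, 2 and 3. Rpl3, which lines the catalytic centre of the large subunit, was at 7.45, 7.38 and 7.59 in Rheb1-/- progenitors, against 7.11, 7.12 and 6.99 in wild type (difference 0.40 ± 0.14, SE; limma adjusted p = 0.297). Rpl32 differed by 0.33 and Rps14 of the small subunit by 0.27, neither overlapping. These genes have many processed pseudogenes, and probes that match those copies were not told apart.

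Other parts of the translation machinery shifted by less. Initiation and elongation factors had a median of 0.11 over 42 genes, with 32 above 0. Tpt1, a growth-linked protein that binds elongation factor eEF1A, was at 6.32, 6.33 and 6.41 in Rheb1-/- progenitors, against 5.93, 5.92 and 5.83 in wild type (difference 0.46 ± 0.09, SE; limma adjusted p = 0.0908). Its arrays lay far apart between genotypes relative to the spread in each. Eef1b2 differed by 0.24 in one probe and by -0.04 in the other, the initiation repressor Eif4ebp1, an mTORC1 substrate, by 0.21 and the elongation factor kinase Eef2k by -0.32 (-0.11 and -0.28 in its other probes). Ribosome biogenesis genes had a median of 0.07 over 56 genes, 44 above 0, with the RNA polymerase subunit Polr1c at 0.38, Noc2l at 0.29 and Myc, which drives ribosome production, at 0.43. The mitochondrial ribosome did not shift (median 0.01 over 76 genes, turning to -0.00 with normexp).

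Targets of ATF4, which mTORC1 and amino acid shortage can both induce, were split. The median was -0.16 over 31 tested, of 34 listed, with 8 lower and 1 higher at an unadjusted p under 0.05 (5.19% and 6.9% of all genes), and Gpt2 passed. Atf4 itself was at 2.89, 2.61 and 3.06 in Rheb1-/- progenitors, against 3.32, 3.09 and 3.21 in wild type (difference -0.36; limma adjusted p = 0.282). The mitochondrial folate enzyme Mthfd2 was at 0.30, 0.22 and 0.51, against 0.77, 0.78 and 0.79 in wild type (difference -0.44 ± 0.09, SE; limma adjusted p = 0.103). Both were lower on every Rheb1-/- array. Chac1, which degrades glutathione, went the other way (0.58; limma adjusted p = 0.117), and Atf3 differed by -0.80 with overlap.

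Macrophage genes were lower beside Ms4a7. Over 35 tested monocyte and macrophage genes, of 37 listed, the median was -0.30, 28 were below 0, 11 lay lower without overlap (8.9% of all genes) and 2 higher (11.1%), with a median of -0.46 for the macrophage genes and -0.25 for the monocyte receptors. The 2 higher were the lipopolysaccharide receptor Cd14 (0.48) and the lysosomal glycoprotein Cd68 (0.27), named after their values were seen. The complement subunit C1qc was at -2.79, -4.09 and -3.83 in Rheb1-/- progenitors, against -1.4975, -1.20 and -1.92 in wild type (difference -2.03 ± 0.42, SE; limma adjusted p = 0.0993), and C1qa differed by -1.88. The transcription factor Spic of red pulp macrophages was at -4.04, -5.27 and -4.80, against -2.60, -2.61 and -2.97 in wild type (difference -1.97; limma adjusted p = 0.106), and the receptor Axl, which binds dying cells, differed by -1.19. None of these 4 genes overlapped between genotypes. The receptor Csf1r, on progenitors as well as macrophages, was at 2.07, 1.91 and 1.99, against 2.27, 2.46 and 2.30 in wild type (difference -0.35). In the complement list C4b rose while the alternative pathway factor Cfb differed by 1.19 and the regulator Cd55 by -1.05, so that its median over 18 tested genes was 0.01, turning to -0.00 with normexp. Of genes for uptake of particles, the Fc receptor Fcgr4 (0.73), the scavenger receptor Lrp1 (0.56) and Adgrb1 (0.46), a receptor for exposed phosphatidylserine, were higher without overlap and did not pass (limma adjusted p = 0.213, 0.0825 and 0.0926). The surface lectin Cd33 differed by 0.90 (limma adjusted p = 0.0908).

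The genes of the progenitor program itself differed little in their median. Over 43 tested myeloid progenitor genes it was 0.08 (0.01 in the deposited table), with 5 lower and 4 higher without overlap (8.9% and 11.1% of all genes). Myeloperoxidase, Mpo, was at 9.48, 9.48 and 9.40 in Rheb1-/- progenitors, against 9.27, 9.34 and 9.62 in wild type, and the genotypes overlapped. Elane, Ctsg and Prtn3 differed by 0.09, 0.14 and 0.26, and Kit by 0.21. The transcription factors Cebpa (0.10) and Gfi1 (0.27), of the granulocyte line, and Irf8 (-0.31), of the monocyte line, did not pass, nor did Cd34 (-0.40) and the granulocyte colony-stimulating factor receptor Csf3r (0.43). Prtn3, Kit, Gfi1, Irf8 and Cd34 did not overlap between genotypes, while Elane, Ctsg, Cebpa and Csf3r did. MHC class II presentation genes were below 0 in 14 of 14, with a median of -0.28 and 2 lower without overlap (8.9% of all genes). Within slide 3, 9 of 14 were below 0 with a median of -0.15, between the other arrays the median was -0.77, and wild-type array 1 stood highest at 0.40.

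Cell division genes split into a part that was slightly lower and a part that was level. Of 41 genes of mitosis 40 were below 0 (46.4% of all genes), with a median of -0.13, 7 lower without overlap (8.9% of all genes) and 0 passing. The 39 genes of DNA replication had a median of -0.01. The mitotic list stood at -0.02, -0.08 and -0.08 in Rheb1-/- arrays 1, 2 and 3, against 0.06, 0.03 and 0.11 in wild-type arrays 1, 2 and 3. Cdc25b, the phosphatase that starts mitosis, differed by -0.36, the spindle proteins Prc1 and Kif4 by -0.30 and -0.22, and the centromere histone Cenpa by -0.24, each without overlap (one of the other Cdc25b probes differed by -0.10), and the licensing factor Cdt1 by 0.33. AP-1 and early response genes had a median of -0.32 over 26 tested with 0 lower without overlap. The list stood at 0.19, -0.35 and -0.21 in Rheb1-/- arrays 1, 2 and 3, against 0.33, 0.22 and -0.12 in wild-type arrays 1, 2 and 3, so that Rheb1-/- array 1 lay within the wild-type range. Jun (-0.55), Jund (-0.72), Klf6 (-0.81) and Egr1 (-0.34) showed this overlap. Several processes tied to mTORC1 had medians within 0.1 of that of all genes: glycolysis with HIF1 targets 0.00 (-0.04 with quantile normalization), the respiratory chain -0.04, nucleotide synthesis 0.04, lysosome genes -0.08 and autophagy genes -0.06. Below 0 were 32 of 45 lysosome genes, 20 of 29 autophagy genes and 27 of 43 respiratory chain genes (46.4% of all genes). For glycolysis with HIF1 targets it was 14 of 29 and for nucleotide synthesis 9 of 21.

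**Figure D5:**
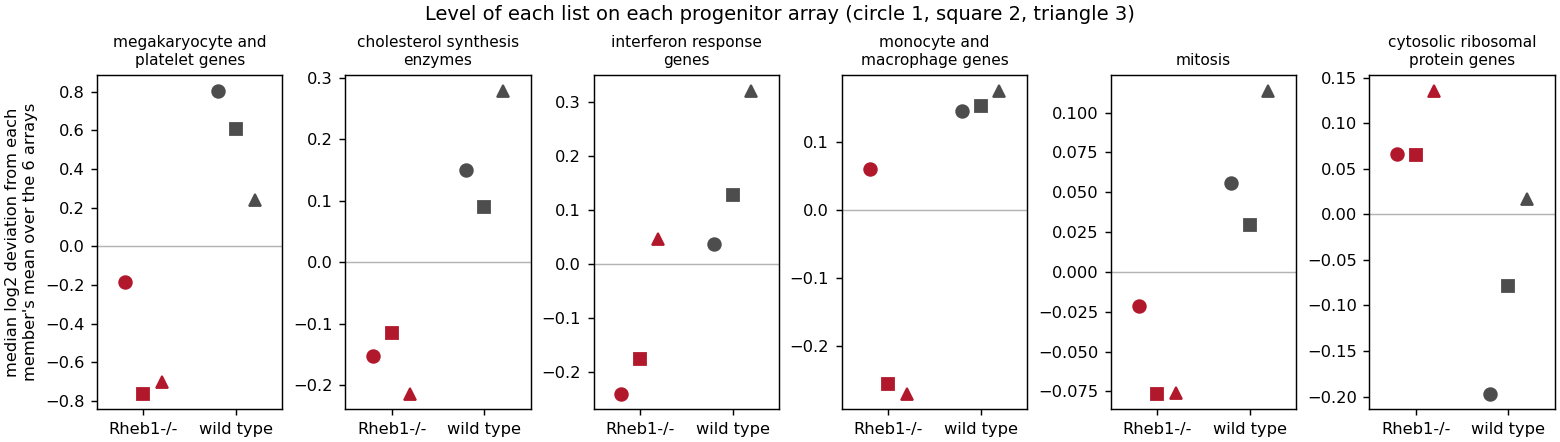
Median log2 deviation of 6 lists' members from their own mean over the 6 progenitor arrays, by array, with Rheb1-/- in red and wild type in grey (circle array 1, square array 2, triangle array 3) and each panel on its own scale. The genotypes lie apart for megakaryocyte, cholesterol, monocyte and macrophage, mitosis and ribosomal protein genes, and meet for interferon genes, where Rheb1-/- array 3 (0.05) lies above wild-type array 1 (0.04).

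The same lists were read in myeloid cells, where the 3 Rheb1-/- arrays lay on one slide and the 3 wild-type arrays on another, so that slide and genotype cannot be told apart. There 16.4% of all genes passed higher and 17.8% lower. Megakaryocyte and platelet genes had a median of -0.75 (13 of 34 passing lower, 0 higher), cholesterol synthesis enzymes -0.52 (14 of 20 lower), interferon response genes -0.62 (26 of 50 lower) and ribosomal protein genes 0.72 (75 of 79 higher). Other lists had the opposite sign to that in progenitors. Genes of mitosis had a median of 0.48 in myeloid cells (26 of 41 passing higher, 0 lower). AP-1 and early response genes had 0.46 (7 of 26 higher, 0 lower) and ATF4 targets 0.14. C4b and Sva differed by 2.71 and 2.83 in myeloid cells, and limma's test of the difference between the cell types did not pass for them (adjusted p = 0.789 and 0.987). It passed for 1910 genes (10.8%), among them Commd10, which differed by 2.42 in myeloid cells (adjusted p = 0.00917 by limma), and Dgat2, which differed by 0.34 there (adjusted p = 0.0405 by limma).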

How the data were processed

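Total RNA labelled with Cy3 was hybridised to single-colour Agilent mouse arrays, 1 array per sample. The authors deposited 1 scanner file per array with background-subtracted spot intensity values, written by Agilent Feature Extraction (version 10.7.3.1 per the file headers, 9.1 per the submitters' processing notes), with probe positions on mm9 per the file headers. The authors also deposited a value table of log2 signals whose columns share nearly 1 distribution (sorted values differ by at most 0.00218), which was used as an alternative. The members and gene lists were chosen with earlier results of these data known.

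From each scanner file the processed signal was scaled to the array's 75th percentile over non-control spots and expressed as log2. Spots with an outlier mark were left out (79 to 195 per array). Spots of a probe were averaged, and the brightest probe stood for a gene. Probe accessions were matched to RefSeq symbols for 27668 of 41174 probes. Of 27343 gene names 17724 were tested, those for which some group of the 4 fitted had all 3 arrays well above background, and every group had 2 or more values. limma 3.58.1 (lmFit, contrasts and eBayes, R 4.3.3) was fitted on 12 arrays in 4 groups of 3 (progenitors and myeloid cells, both genotypes), with Benjamini-Hochberg adjustment over all genes tested and a threshold of 0.05. A difference is Rheb1-/- minus wild type. Where all arrays of a group were below background, a fold is a lower bound under the main processing. The fit and its calls were tested on simulated data with known changes. Promoter windows are from RefSeq (GRCm38.p6). Python 3.11.15, pandas 2.3.3, numpy 2.4.6 and matplotlib 3.10.9 were used.

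Genes were named by rule: Rheb, every passing gene with an official symbol, the 10 smallest p in each direction among genes that did not pass, whose genotypes did not overlap and whose brighter genotype was above background throughout, and in each list its preset members and up to 5 of smallest p. Alternatives changed the normalization, background correction, filter, probe rule, variance model, slide, replicate block and arrays used, and 2 were added after seeing the data (Rheb1-/- array 3 minus wild-type array 1, and list members above background on all 6 arrays). The 2 stem cell samples, 1 per genotype, were not compared. Some genes and 1 probe sequence that the rule would name are not reported here, although list counts and medians include them.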

Additional observations from a re-analysis of the deposited data

Results flagged for a closer look

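For 29 named genes the Rheb1-/- minus wild-type difference in progenitors was not the same as that in myeloid cells, by limma's test of the difference between the cell types (adjusted p between 0.0037 and 0.0405; 10.8% of all genes tested passed this test). In myeloid cells slide and genotype cannot be told apart, and the part of the slide in these values was not tested. Each value below is the effect in progenitors minus the effect in myeloid cells, on the log2 scale.

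Among genes that passed in progenitors, the value was 2.39 for the immunoglobulin kappa light chain variable segment, 2.27 for 4932439E07Rik, 1.65 for Olfr1358, 1.19 for Kif1a, 1.18 for Mfsd13b and 0.72 for Dgat2, all higher in progenitors. The kappa segment, 4932439E07Rik, Olfr1358 and Mfsd13b, and Lrfn3 below, were above background on 0 of 3 wild-type progenitor arrays, so their values rest on signals near the floor and are not sizes of change. Commd10 gave -1.17, since its difference was 1.25 in progenitors and 2.42 in myeloid cells. Of genes just outside the threshold, Wscd2 gave 2.28, Lrfn3 1.48 and Mxra7 -0.45.

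The stress and early response genes Atf3, Jun and Atf4 gave -2.76, -2.07 and -0.99, and the ATF4 target Chac1 gave 1.43. The granule proteases Prtn3, Ctsg and Elane gave -1.35, -1.24 and -1.02, and the receptor Kit gave -0.67. Growth and translation genes gave -1.52 for Myc, -0.86 for Eef1b2 and -0.45 for Noc2l. Cell division genes gave -0.75 for Prc1, -0.63 for Kif4 and -0.63 for Cdt1. Complement and uptake genes gave 2.06 for Cfb, 1.49 for Cd33, 0.91 for Lrp1 and 0.51 for Adgrb1. Scap, of sterol control, gave -0.39.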

How the results depend on the processing

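The number of passing genes depended strongly on the settings. Against 13 genes, 27 passed with normexp background correction (7 higher, 20 lower, 3 shared), 7 with no filter, 4 with slide as a block, 55 with array weights, 51 with a trended and robust prior and 121 at an adjusted p of 0.10. By limma 0 passed in the 4 arrays of slide 3 and 0 in the 6 progenitor arrays fitted alone, with 1388 and 2134 genes at an unadjusted p under 0.05. Leaving out 1 array gave 6 to 81 genes. The count was 81 without Rheb1-/- progenitor 1, 54 and 51 without wild-type progenitors 3 and 2, 8 without Rheb1-/- progenitor 2, and 6 without wild-type progenitor 1, Rheb1-/- progenitor 3 or wild-type myeloid cell sample 1 or 2. The cause was not tested.

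Rheb ranged from -1.29 to -0.965 when 1 array was left out and passed without Rheb1-/- progenitor 1 (-1.29, limma adjusted p = 0.0402). The median of the megakaryocyte and platelet genes was -0.60 with normexp, -0.76 for members above background on all 12 arrays and -1.47 for Rheb1-/- array 3 minus wild-type array 1. For interferon response genes it was -0.45 with slide as a block and within slide 3, and 0.0442 between those 2 other arrays. For ribosomal protein genes it was 0.0673 with quantile normalization, 0.0680 in the deposited table and 0.33 between those arrays, where eosinophil, basophil and mast cell genes stood at -1.06.

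Signs turned for Mfsd13b with the mean of probes (-0.19) and for Acly without wild-type progenitor 3 (0.00078, range -0.126 to 0.00078). Mpo turned with quantile normalization (-0.0294), in the deposited table (-0.0294), with slide as a block and within slide 3 (-0.00059 each), and without wild-type progenitor 1 (-0.0273, range -0.0273 to 0.149). Replicate numbers did not pair the samples, with correlations of deviations of -0.01, 0.11 and 0.03, and the fit with the replicate block passed 14 genes, 10 of them shared. Over 146 named genes, 3257 of 3482 values under alternatives kept direction and side of the threshold, 123 fell short of it, 95 newly passed and 7 turned. This share does not measure how stable the calls were. Only 13 genes passed in the main fit, so for most named genes keeping their side meant staying short of the threshold. All 123 losses fell on the passing genes. Leaving out a myeloid cell array cannot change a progenitor difference, only its p-value.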
